A study of Homo sapiens with 2 samples.

Results

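The genes described here encode the proteins of the cytosolic ribosome. They were found by symbol on the array: names beginning RPL or RPS followed by a digit, RPLP0 to RPLP2 and RPSA, taken from probe sets annotated to exactly 1 symbol, with RPS6K kinases, pseudogenes and antisense names left out. This gave 62 of 19775 named genes, measured by 123 of 41091 probe sets of 1 symbol. Of the 62, 52 are core ribosomal protein genes (32 of the large 60S subunit and 20 of the small 40S subunit), 9 are second copies or relatives of a core gene, and RPL34-DT fits the symbol pattern but is a non-coding transcript that starts beside RPL34. The rule itself uses no measured value, though the group was chosen with earlier results of these data known.

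Total RNA of LN229, an established human glioblastoma cell line grown in DMEM with serum, was hybridised to Affymetrix 3′ expression arrays. One culture carried the plasmid pSUPER.neo-miR-127-3p, which drives the microRNA miR-127-3p, and the control culture carried pSUPER.neo without it. The study asked which genes this microRNA regulates in glioblastoma cells. There was 1 array per group, so no p-value is given, no difference has a replicate check, and the labels do not say whether a culture was a clone, a pool or a transient transfection. The microRNA binds its targets through bases 2 to 8, the seed, shown in capitals because it defines what the treated culture carried. Per RefSeq it lies at chr14:100883035-100883056 on the plus strand of GRCh38.p14.
hsa-miR-127-3p: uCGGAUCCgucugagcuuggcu

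A ribosome joins a large and a small subunit, each a scaffold of ribosomal RNA clothed in proteins that are mostly present once per particle. Cells make these proteins in matched amounts, and surplus copies are degraded. The messenger RNAs of nearly all of them begin with a C followed by a run of pyrimidines, the 5′ terminal oligopyrimidine tract, through which the kinase mTOR and the RNA-binding protein LARP1 adjust their translation and stability together. Loss of 1 copy of several of them causes Diamond-Blackfan anaemia, and free RPL5 and RPL11 with 5S RNA bind MDM2 and so raise p53.

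The first bases of the transcripts show what the members share beyond their names. The windows below run from 5 bases before the RefSeq start of GRCh38.p14 through the first 20 bases of the transcript, with the pyrimidine tract at the start in capitals. They were picked for genes described further on: those with low or high ratios, RPS27 as the partner of RPS27L, and RPS9 for its discordant probe sets.
RPL35A: tcgtcCTTCTCTTaccgccatcttg
RPL22: acctcCCTTTCTaactccgctgccg
RPL22L1: gcttcCTCTCTgctctcgcggccga
RPS24: tggttCTCTTTTCCTCCTTggctgt
RPS27: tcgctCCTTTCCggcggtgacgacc
RPS27L: cgagcgcagatcgcttgcagcttgc
RPLP1: gagagCCCCTTTCCTCagctgccgc
RPLP2: gccttCCTTTTCCTCCCTgtcgcca
RPS9: cgcgcCTCTTTCTCagtgaccgggt
RPL35A lies at chr3:197950185-197950209 and RPS24 at chr10:78033858-78033882 on the plus strand, and RPL22 at chr1:6199576-6199600 and RPL22L1 at chr3:170870176-170870200 on the minus strand. RPS27 lies at chr1:153990757-153990781, RPLP1 at chr15:69452813-69452837, RPLP2 at chr11:809962-809986 and RPS9 at chr19:54200853-54200877 on the plus strand. RPS27L lies at chr15:63157458-63157482 on the minus strand and is the 1 gene of these 9 without a tract at its annotated start. RPL22 and RPL22L1 both carry one, of 7 and 6 bases.

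Of 46 core members with an entry in the RefSeq promoter table, 34 (73.9%) had an annotated start at a C followed by at least 4 more C or T bases, against 5.95% of 15770 other protein-coding genes. The other 12 were RPL3, RPL6, RPL9, RPL10A, RPL19, RPL27, RPL32, RPS4X, RPS7, RPS15, RPS28 and RPS29, and an annotated start can lie some bases away from the one used in these cells. Short sequences were sought on both strands, from 250 bases before to 50 bases after each annotated start of a gene. A gene counted if any of its windows held the sequence. CCGGAAG, the core bound by ETS factors, was present in 37.0% of core members and 16.4% of other protein-coding genes. CACGTG, the E-box that MYC can bind, was present in 6.52% and 10.9%. TATAAA was present in 6.52% and 12.4%, and CCAAT in 32.6% and 42.2%. These are matches of letters and not measured binding.

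Signals are deposited on a linear scale in arbitrary units. Every ratio below is log2(signal + 1) with miR-127-3p minus the control, after subtracting the median over all 11985 genes whose mean log2 signal lay above the median of all probe sets, a signal of about 83.0. The brightest such probe set stands for its gene, and paired signals name the miR-127-3p array first and the control array second. All 52 core members and 6 of the 9 relatives passed this filter, 58 genes and 108 probe sets in all. RPL3L, a form of RPL3 restricted to heart and skeletal muscle, gave 6.29 against 45.0. RPL39L, a testis-enriched form of RPL39, gave 7.47 and 3.34, and RPL34-DT gave 19.1 and 10.4. These 3 were below both arrays' medians of 83.3 and 93.9, so no fold is given, and the fourth gene below the filter is Y-linked and its level is not reported. Ratios of different probe sets of 1 gene had a spread of 0.44 (SD, pooled over 5974 genes) and of 0.47 within 30 ribosomal protein genes, which is an error within the arrays and holds nothing of the variation between cultures.

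The ribosomal protein genes as a group had slightly lower signals with miR-127-3p. Of the 58 genes 48 had ratios below 0, against 50% of all genes by the centring, and their median was -0.13 with quartiles of -0.25 and -0.02. For all genes the quartiles were -0.41 and 0.37. They were narrower, -0.22 and 0.31, over all probe sets with a mean signal above 5000, where most members lay. The count depended on the scaling while the median stayed below 0: 38 of the 58 were below 0 with quantile normalization and 35 with each array centred on its 75th percentile, where the median over all genes was 0.03 and 0.08 and that of the ribosomal protein genes -0.040 and -0.050. In 48 of 58 genes the ratio of the single gene was smaller than 0.44, which held for 55.9% of all genes. In bulk RNA of cultures, fewer cells of a type and less RNA per cell cannot be told apart.

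**Figure D1:**
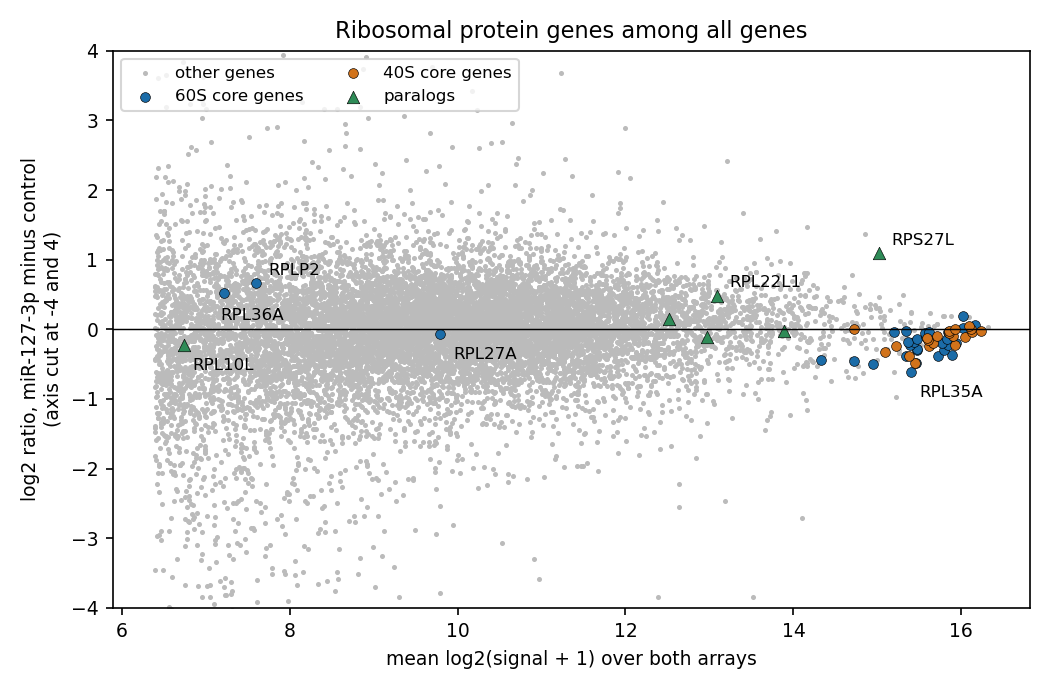
Log2 ratio (miR-127-3p minus control) against mean log2(signal + 1) over both arrays, with a point per gene and the vertical axis cut at -4 and 4. Core genes of the 60S subunit (blue) and 40S subunit (orange) lie mostly at the right and just under 0, RPS27L is highest among the green paralogs at 1.09, and RPLP2, RPL36A, RPL27A and RPL10L are the members with dim probe sets.

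Hardly any member passed a fixed fold at its brightest probe set. RPL35A alone was at least 1.5-fold lower, 1 of 58 against 18.1% of all genes, and RPS27L and RPLP2 were at least 1.5-fold higher, 2 of 58 against 14.5%. The call for RPLP2 rests on a dim probe set, and its bright one was at -0.14. No member was at least 2-fold lower at its brightest probe set, against 8.67% of all genes, and RPS27L alone was at least 2-fold higher, against 5.06%. These counts rest on the brightest probe set of each gene. With the mean of all its probe sets 8 members were at least 1.5-fold lower and 1 at least 2-fold lower. The brightest probe set had a cross-match suffix (_x_at or _s_at) in 75.9% of members. For all genes, where _a_at was counted too, the share was 37.0%. Without such probe sets 7 of 29 members were at least 1.5-fold lower and 4 at least 2-fold lower. Shares over all genes were not counted under these 2 alternatives. Large ratios were rarer at bright probe sets in general, and 51 of the 58 members had signals over 10000 on both arrays. Of 1433 probe sets of all genes with a mean signal above 5000, 131 were at least 1.5-fold lower and 134 higher. At least 2-fold lower were 45 and higher 26. Of the 75 member probe sets above 5000, 5 were at least 1.5-fold lower and 1 higher, and 3 were at least 2-fold lower and 1 higher.

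Markers of other cell types differed between the same arrays. Of 12 epithelial markers 10 were brighter in the control, their summed signal was 7758 against 93379, and none was listed at 0. On the miR-127-3p array 4 of the 12 were above the array median, and on the control array 9 were. KRT19, a keratin of simple epithelia, gave 5.64 against 12674, and EPCAM, an epithelial adhesion molecule, gave 30.2 against 9181. Of 10 glial and glioblastoma markers 9 were above the median on each array, with 7 brighter in the control, 3 brighter with miR-127-3p and summed signals of 81736 and 77517, while GFAP, the astrocyte filament, was below it on both at 14.9 and 34.2. SOX2, a neural stem cell factor, gave 1656 against 3893, and VIM, a filament protein, gave 48866 against 45584. Leukocyte markers summed to 178 and 130 over 3 genes, and endothelial markers to 350.1 and 339 over 4. What part these differences have in the ribosomal protein ratios was not tested.

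Control probe sets for 18S ribosomal RNA, the RNA of the small subunit, were brighter with miR-127-3p. They gave 16654 against 12566 at the 5′ part, 16521 against 10243 in the middle and 29757 against 19414 at the 3′ part, which is 1.33, 1.61 and 1.53 times the control. The 3 GAPDH controls were 1.03 to 1.04 times the control. Those for beta-actin were 1.19 times the control at the 5′ part, 1.02 in the middle and 1.04 at the 3′ part. The labelling kit is built for polyadenylated RNA, so the 18S values do not measure the amount of ribosomes, and their part in the ribosomal protein ratios was not tested.

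The large subunit had the lowest members. RPL35A, a core protein mutated in Diamond-Blackfan anaemia, gave 35176 against 53422, a ratio of -0.61 or 1.53-fold lower. Its 3 entering probe sets all lay on that side, at -0.96 to -0.61. RPL22, which binds RNA and is often mutated in cancers with microsatellite instability, gave 26645 against 37256, a ratio of -0.50. RPL3, which lies near the peptidyl transferase centre, gave 38214 against 53249 and RPL14 gave 23254 against 31476, ratios of -0.49 and -0.45. RPL35A, RPL22 and RPL3 were lower by more than both probe set spreads, RPL14 lay between 0.44 and 0.47, and all probe sets of these 4 genes lay below 0. RPL36 followed at -0.44, RPL34 at -0.39, RPL24 at -0.38 and RPL7 at -0.36.

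At the other end of the large subunit stood genes of the stalk, the flexible arm that recruits elongation factors. RPLP1, a stalk protein, gave 71610 against 61938, a ratio of 0.20. RPLP2, its partner, gave 243 against 152 at the brightest probe set of 1 symbol, a ratio of 0.66, and another probe set was at -0.10. The bright probe set of RPLP2, which also carries the name of the small nucleolar RNA SNORA52 and so falls outside the rule, gave 60179 against 65919, a ratio of -0.14. The direction of RPLP2 thus turned with the probe set, and RPLP0, the base of the stalk, was not analysed here. RPL36A behaved likewise: 178 against 123 and a ratio of 0.52 by the rule, but 43626 against 65295 and -0.59 at a probe set that also carries the read-through name RPL36A-HNRNPH2. RPL27A gave 869 against 908, a ratio of -0.07, and -0.02 at its bright probe set shared with SNORA3A. RPL37A gave 75677 against 71590, a ratio of 0.07, with other probe sets at -0.67 and 0.52.

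Over the 32 core genes of the 60S subunit the median was -0.18 with 27 below 0, and over the 20 of the 40S subunit it was -0.11 with 18 below 0. The ranges were -0.61 to 0.66 and -0.48 to 0.05, so the 40S range lay inside the 60S range, whose upper end is the dim probe set of RPLP2. The 60S median was the lower under all 15 alternative settings, and no test of the difference was possible with 1 array per group.

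In the small subunit RPS24, RPS15, RPS25 and RPS28 had the lowest ratios. RPS24, which is needed for processing of the 18S precursor and mutated in Diamond-Blackfan anaemia, gave 37868 against 52513, a ratio of -0.48. RPS15, a protein of the head of the subunit, gave 37333 against 48221, a ratio of -0.38, but a second, dim probe set of 104 against 66.6 was at 0.62; its control signal was under the filter, which it passed through the miR-127-3p array. RPS25, which some viral internal ribosome entry sites require, gave 31243 against 38780, a ratio of -0.32. RPS28 gave 35136 against 41359, a ratio of -0.25, with 3 probe sets between -0.25 and -0.02. Only RPS24 of these 4 was lower by more than the probe set spread.

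The highest core genes of the small subunit lay at 0 at their brightest probe set. RPS21 gave 71477 against 68617, a ratio of 0.05, and RPS16 gave 71472 against 70747, a ratio of 0.0032. Other probe sets of RPS16 gave 42422 against 52590, 40515 against 46364 and 172 against 145, ratios of -0.32, -0.21 and 0.23. RPS9, which helps keep decoding accurate, gave 27064 against 26856, and RPS4X, the X-linked form of RPS4, gave 62493 against 62016, both with ratios that round to 0.00. The remaining small subunit genes ran from RPS29 at -0.25 through RPS6, the best known substrate of S6 kinase, at -0.22 and RPS3 at -0.20 to RPS18 and RPS19 at -0.02.

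**Figure D2:**
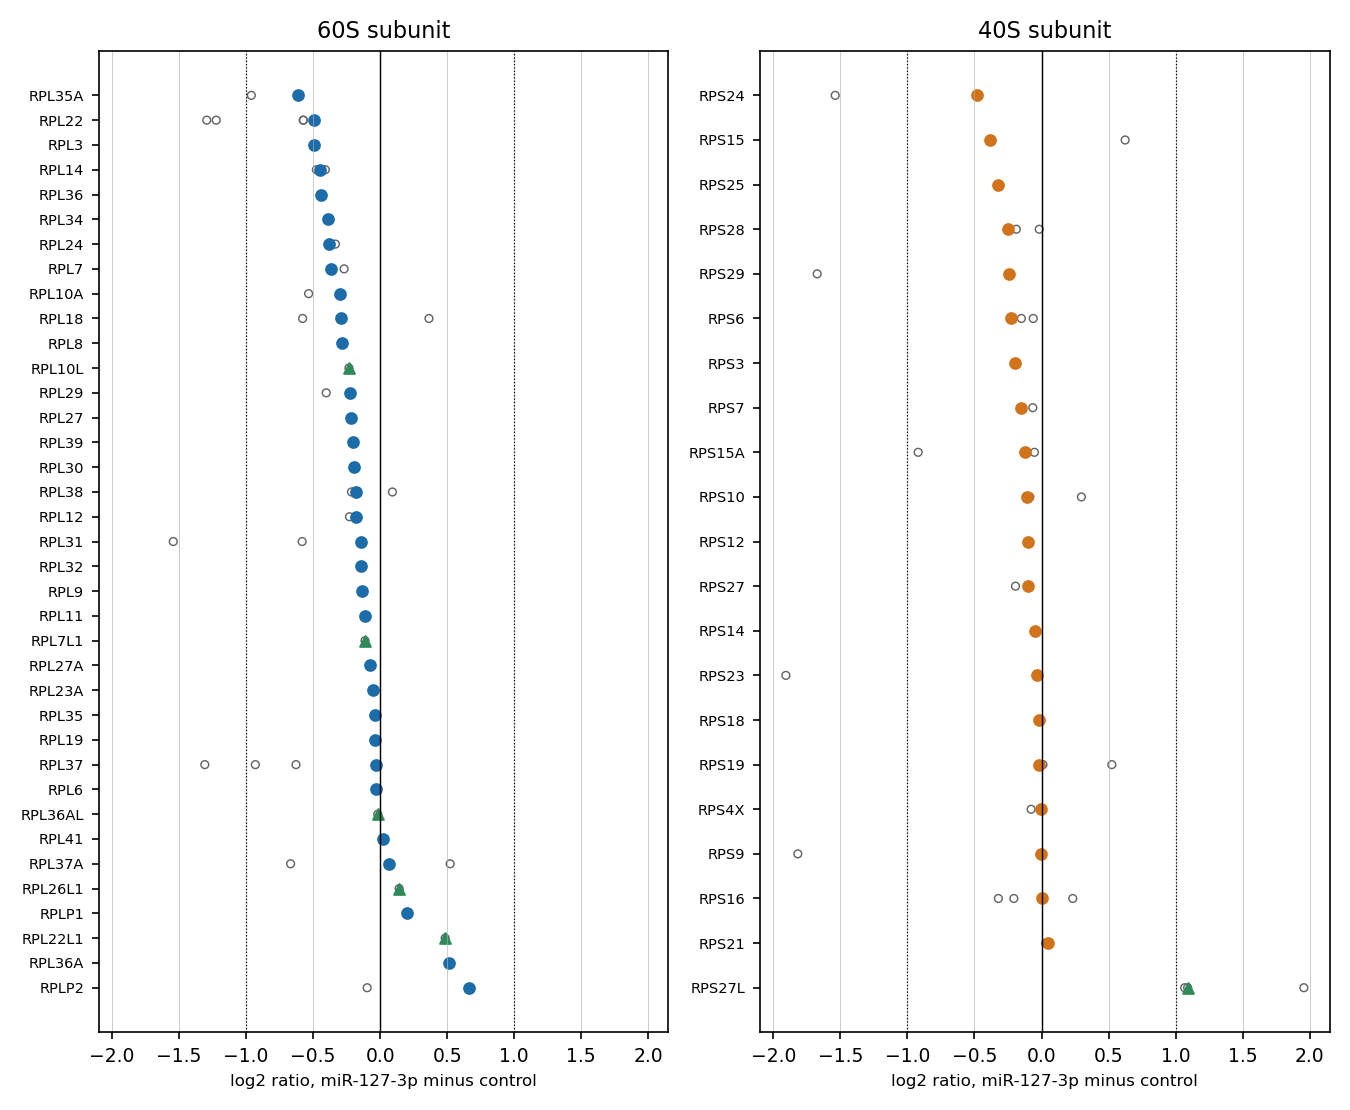
Log2 ratio (miR-127-3p minus control) of every ribosomal protein gene above the filter, ordered within the 60S and 40S subunits. Filled circles are core genes and triangles relatives at the brightest probe set, open circles are all entering probe sets, and dotted lines mark 2-fold. Filled symbols run from -0.61 (RPL35A) to 1.09 (RPS27L), and the open circles far to the left belong to RPS23, RPS9, RPS29, RPL31, RPS24, RPL37 and RPL22.

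The relatives of core genes split in direction, 3 of the 6 above the filter having ratios below 0. RPS27L, a relative of RPS27 whose gene is a p53 target, gave 48497 against 22603, a ratio of 1.09 or 2.13-fold higher. Its other probe sets gave 2575 against 1219 and 1271 against 324, ratios of 1.07 and 1.96, so all 3 were at least 2-fold higher. RPS27 itself gave 59138 against 62821, a ratio of -0.10, and 204 against 231 at a dim probe set, a ratio of -0.19. The gap between the pair was larger than the probe set spread, and no probe set of RPS27L overlapped one of RPS27 in ratio.

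RPL22 and RPL22L1 encode closely similar proteins, and RPL22 is known to restrain the expression of RPL22L1. All 5 probe sets of RPL22 were dimmer with miR-127-3p. The 3 with the suffix _x_at, which marks probes that also match other transcripts, gave 26645 against 37256, 25713 against 37932 and 24166 against 35658, ratios of -0.57 to -0.50. The other pair gave 5147 against 11913 and 4126 against 10030, ratios of -1.22 and -1.29, or 2.33-fold and 2.45-fold lower. RPL22L1 went the other way, with 10324 against 7316 at its 1 probe set, a ratio of 0.49 or 1.40-fold higher. The fold for RPL22 therefore depends on which of its probe sets is read, while the direction is shared by all 5.

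The other relatives differed little. RPL26L1, a near copy of RPL26, gave 6183 against 5558, a ratio of 0.14. RPL7L1, a relative of RPL7 that takes part in large subunit assembly, gave 7772 against 8335, a ratio of -0.11. RPL36AL, an autosomal copy of RPL36A, gave 15088 against 15149, a ratio of -0.02, and RPL10L, a testis form of RPL10, gave 97.9 against 114, close to the array medians. All 4 ratios were inside the probe set spread.

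**Figure D3:**
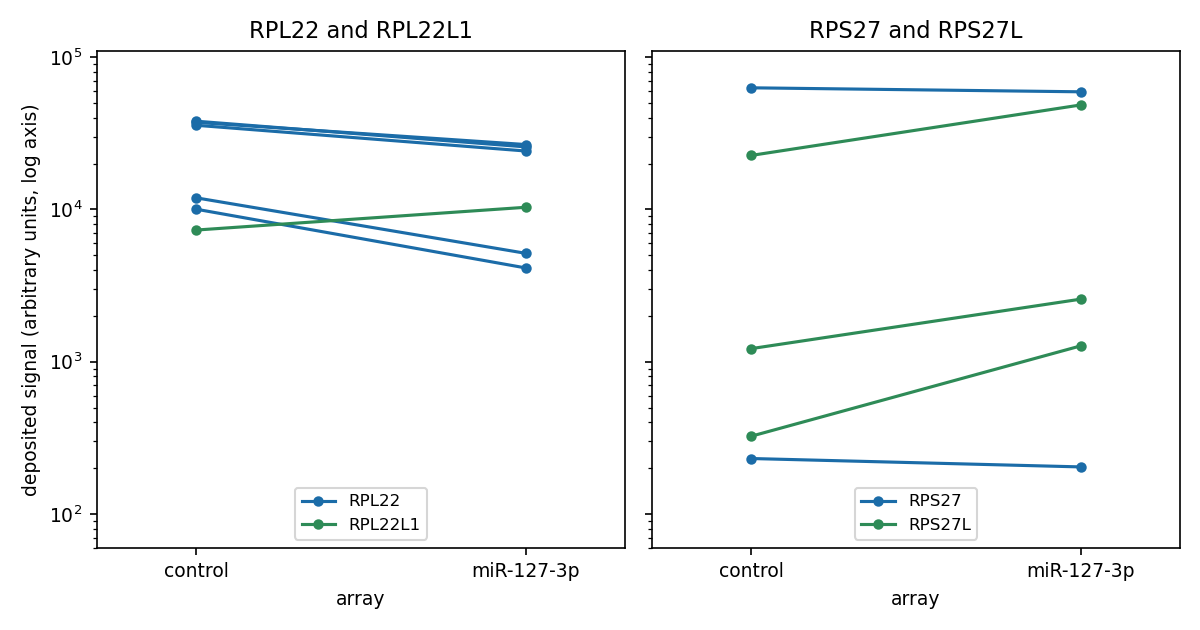
Deposited signal (arbitrary units, log axis) on the control and miR-127-3p arrays, with a line per probe set above the filter, for RPL22 and RPL22L1 (left) and RPS27 and RPS27L (right). All 5 lines of RPL22 go down and that of RPL22L1 goes up, while the 3 lines of RPS27L go up and both of RPS27 go slightly down.

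Probe sets of the same gene often disagreed in size. Several probe sets entered for 30 members: 20 had all of them below 0, RPS21 and RPS27L had all above 0, and 8 had probe sets on both sides. Over all 108 entering probe sets 87 were below 0, against 49.9% of all entering probe sets, and 8 were at least 2-fold lower, against 8.08%. Those 8 belonged to RPS23, RPS9, RPS29, RPL31, RPS24, RPL37 and RPL22, and none was the brightest of its gene.

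RPS23, a protein of the decoding centre, gave 71242 against 72273 at its bright probe set, and 83.6 against 314 at the other, ratios of -0.03 and -1.91. The miR-127-3p signal of the dim one was close to the filter of about 83.0. RPS9 gave 6349 against 22199 at a second probe set, a ratio of -1.82, beside 0.00 at the first. RPS29 gave 143 against 455 at a dim probe set, a ratio of -1.67, and 46458 against 54621 at the bright one. The brightest probe set and the other thus read different sizes in each of these genes. RPL31 gave 55724 against 61035, 620 against 1792 and 738 against 1096, ratios of -0.14, -1.54 and -0.58. RPL37 gave ratios of -0.03 at its bright probe set and -1.31, -0.93 and -0.63 at 3 dimmer ones, and RPS24 gave -1.54 at 693 against 1999. What sequence each dim probe set reads was not analysed here.

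The pattern of lower dim probe sets was not general. Over the 33 entering probe sets with a mean signal below 5000 the median ratio was -0.19 with quartiles of -0.67 and 0.30, against a median of -0.18 with quartiles of -0.35 and -0.04 for the 75 above 5000. Of 19 genes with probe sets on both sides of that signal, the dimmer ones were lower in 10, with RPS23 and RPS29 at the low extreme. Over all genes, probe sets above 5000 had a median of 0.05 with quartiles of -0.22 and 0.31. At their brightest probe set 51 of the 58 members had signals over 10000 on both arrays, and the highest signal in the files was 83180. Whether differences are compressed near the top of the scale was not tested.

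Genes that also carry a small nucleolar RNA in an intron were mostly outside the rule, since their probe sets bear both names. Of 65 probe sets with several symbols that include a ribosomal protein gene, 56 also name a small nucleolar RNA. The 65 probe sets add 15 genes, of which 13 had ratios below 0, with a median of -0.10. RPL28 and RPS26 are among the 15, though their probe sets name no small nucleolar RNA. RPS3A, a small subunit protein, was lowest at -0.34 with 57000 against 71726, followed by RPL13A, which also takes part in interferon-induced translational silencing, at -0.24 and RPS20 at -0.22. RPL5, which carries 5S RNA into the ribosome, gave 47910 against 53765, a ratio of -0.18, and its partner RPL11 gave 47087 against 50511, a ratio of -0.11. RPS26 and RPL17 were the 2 above 0, at 0.13 and 0.11. With these probe sets allowed 73 genes were measured, 62 were below 0 and the median was -0.14. Some members were then read at another probe set, with RPLP2 turning to -0.14 and RPL36A to -0.59.

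Of 19 genes mutated in Diamond-Blackfan anaemia, 14 were members above the filter and all 14 had ratios below 0, with a median of -0.15. They ran from RPL35A at -0.61 and RPS24 at -0.48 to RPL35 at -0.04 and RPS19, the most often mutated of them, at -0.02. RPL5 and RPS26 of the same list, measured only by probe sets with several symbols, were at -0.18 and 0.13. The other 38 core genes had a median of -0.14 with 31 below 0. RPS27A, which is made fused to ubiquitin, was not analysed here.

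By chromosome, as the RefSeq promoter table of GRCh38.p14 gives it, 4 chromosomes held at least 4 core members. The 5 on chromosome 3 (RPL14, RPL24, RPL29, RPL32 and RPL35A) had a median of -0.38 and all lay below 0, where 609 other genes of that chromosome had a median of -0.19. The 7 on chromosome 19 had a median of -0.25, with 686 other genes at 0.06. The 4 on chromosome 6 had a median of -0.11, with 539 others at 0.08, and the 4 on chromosome 11 one of -0.14, with 539 others at -0.08. These groups are small and overlap each other.

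Core members with an annotated pyrimidine tract had a median of -0.11 over 34 genes, and those without one had a median of -0.18 over 12 genes. The 14 measured genes outside the symbol rule known to carry such a tract, not all of them translation factors, had a median of -0.24, with 12 below 0. EIF3E and EEF1D, subunits of an initiation and an elongation factor, were lowest, with 20393 against 32596 and 15452 against 24674 and ratios of -0.69 for both. TPT1, the translationally controlled tumour protein, was highest with 73878 against 65169, a ratio of 0.17, and its 5 probe sets all lay above 0. EEF1A1, the main elongation factor, was at 0.01. In this list 2 of 14 genes were at least 1.5-fold lower, against 18.1% of all genes, and none was 1.5-fold higher, against 14.5%. FAU, whose product carries a ribosomal protein fused to a ubiquitin-like domain and which falls outside the symbol rule, gave 44343 against 44154, a ratio of -0.01.

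**Figure D4:**
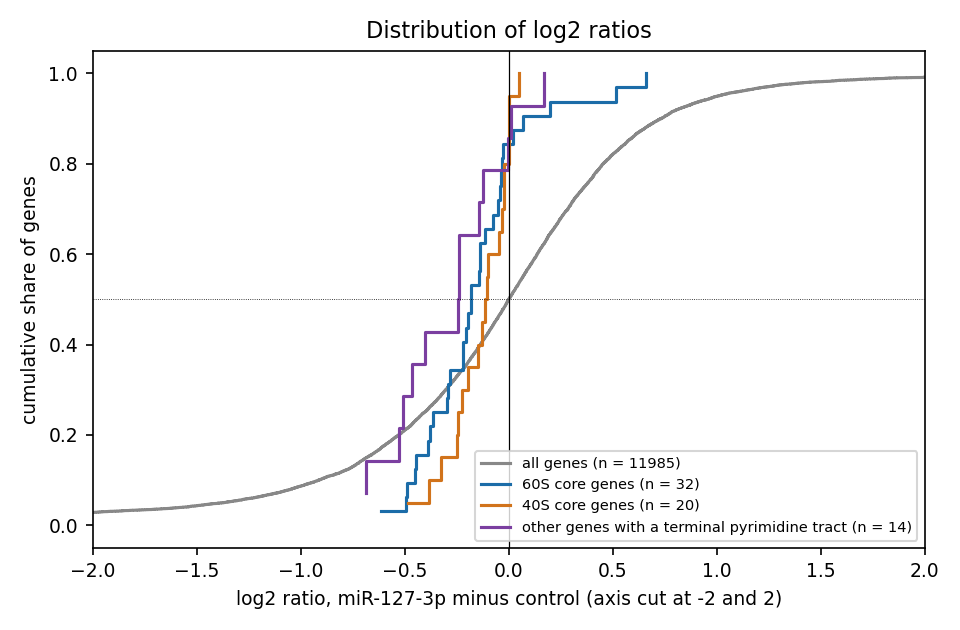
Cumulative share of genes against log2 ratio (miR-127-3p minus control, axis cut at -2 and 2) for all 11985 genes, 32 core genes of the 60S subunit, 20 of the 40S subunit and 14 other genes with a terminal pyrimidine tract. The 3 coloured curves cross a share of 0.5 at -0.18, -0.11 and -0.24, left of the grey curve of all genes, and are steeper than it.

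Regulators and other factors of translation were spread more evenly around 0. Of 16 genes of mTOR and LARP1 control 8 were below 0, with a median of -0.02. AKT1S1, an inhibitor within mTOR complex 1, was highest at 0.71 and TSC1 at 0.49, and TIAL1, an RNA-binding protein, and DEPTOR, an mTOR inhibitor, were lowest at -0.60 and -0.43. LARP1 itself was at 0.24 with 3 probe sets between -0.58 and 0.24. Of 21 initiation factors 7 were below 0 and the median was 0.08, with EIF2S3 and EIF1AX at -0.76 and -0.75 and EIF3K and EIF3C at 0.62 and 0.45. The value of EIF3C rests on 1 dim probe set of 127 against 92.1, with the control signal below its array median of 93.9. Of 8 elongation and termination factors 4 were below 0 and the median was -0.06. Among these, EEF1A1, EEF1D and EEF2 are also counted in the list of tract genes above. EIF5A, which helps ribosomes through proline-rich stretches, gave 4498 against 11012, a ratio of -1.30, ABCE1, a recycling factor, was at -0.74, and EEF1A2 and ETF1 were at 0.82 and 0.43. EIF5A was the 1 gene of these lists past 2-fold, against 8.67% of all genes at least 2-fold lower and 5.06% higher. At least 1.5-fold lower were 1 of the 16 control genes, 2 of the 21 initiation factors and 3 of the 8 elongation and termination factors. That compares with 18.1% of all genes. Each list had 1 gene at least 1.5-fold higher, against 14.5% of all genes.

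**Figure D5:**
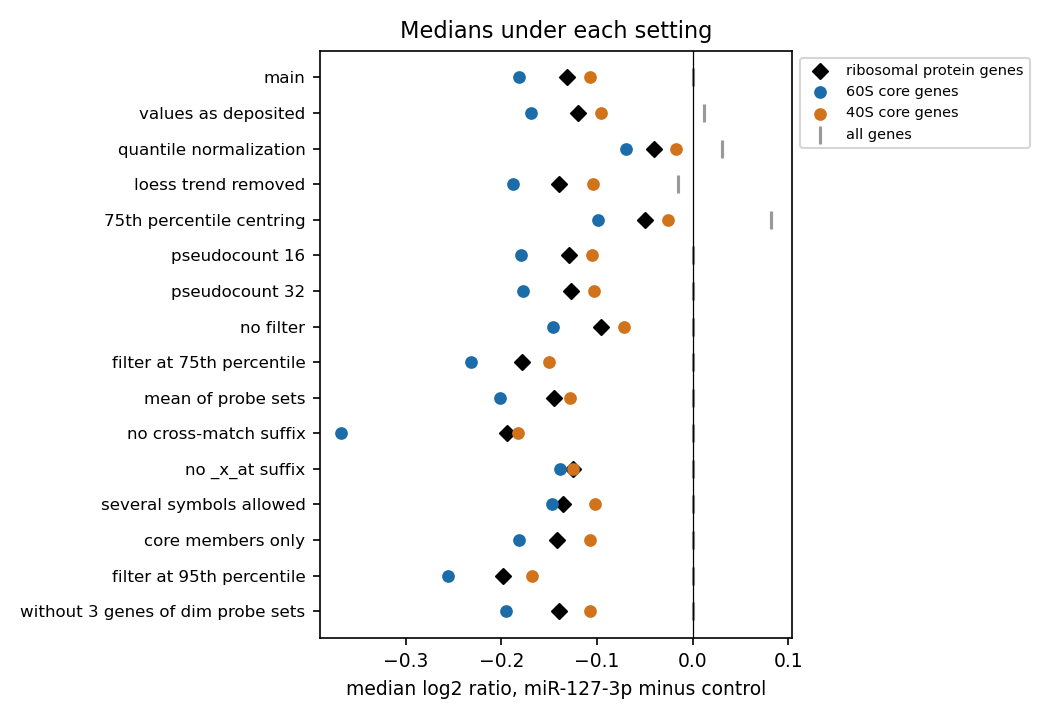
Median log2 ratio (miR-127-3p minus control) of all ribosomal protein genes (diamonds), 60S core genes (blue), 40S core genes (orange) and all genes (grey bars) under the main setting and 15 alternatives. The medians of the 3 ribosomal protein groups lie below 0 in every row, between -0.37 and -0.02, and nearest to 0 with quantile normalization and 75th percentile centring.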

How the data were processed

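The authors deposited 1 signal intensity per probe set and array on a linear scale, from Trizol-extracted RNA labelled with an Affymetrix 3′ kit, per the labels' protocols. How probe signals were summarised and scaled is not given in the sources used here. Intensities were turned into log2(signal + 1), filtered at the median of mean log2 signal, reduced to the brightest probe set with 1 symbol per gene and centred on the median over genes. Symbols came from the platform annotation, updated through Entrez identifiers. The members and lists were chosen with earlier results of these data known. Named genes were the 4 lowest and highest core genes of each subunit, stalk, 5S and related genes, those with discordant probe sets, and the 2 extremes of each list; RPL36, RPL34, RPL24, RPL7, RPS3, RPS6, RPS18, the other ends of ranges and the genes with several symbols were named after their values were seen. A Y-linked gene is counted but not reported here. With 1 array per group no test was run, and the number of arrays limits the precision. Medians and counts past 1.5-fold and 2-fold are set beside those of all genes. The procedure was tested on simulated data. Sequences are from RefSeq, GRCh38.p14. Alternatives were other scalings, pseudocounts of 16 and 32, other filters, probe set rules and member sets. No count of microRNA seed sites was made. Python 3.11.15, numpy 2.4.6, pandas 2.3.3, statsmodels 0.14.6 and matplotlib 3.10.9 were used.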

Additional observations from a re-analysis of the deposited data

How the results depend on the processing

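Of 15 alternatives, 2 of them (a filter at the 95th percentile and leaving out RPL27A, RPL36A and RPLP2) were chosen after seeing the data. The median of the ribosomal protein genes stayed below 0 in all 15, between -0.20 and -0.040. It was -0.040 with quantile normalization, -0.050 with 75th percentile centring and -0.20 with the filter at the 95th percentile. The 60S median was -0.070 with quantile normalization, -0.10 with 75th percentile centring and -0.37 without probe sets of a cross-match suffix, and the 40S median was -0.017, -0.026 and -0.18 there and -0.17 with the filter at the 95th percentile. Genes below 0 numbered 23 of 29 without a cross-match suffix. Genes at least 1.5-fold lower numbered 0 with quantile normalization and 75th percentile centring, 2 of 62 with no filter and 2 of 73 with several symbols allowed. They numbered 3 of 49 without the _x_at suffix, 7 of 29 without any cross-match suffix and 8 of 58 with the mean of probe sets. Shares over all genes were counted under the main setting only. They were 18.1% at least 1.5-fold lower, 14.5% higher, 8.67% at least 2-fold lower and 5.06% higher. Members at least 2-fold lower numbered 1 of 58 with the mean of probe sets and 2 of 62 with no filter. They numbered 2 of 49 without the _x_at suffix and 4 of 29 without any cross-match suffix. Members at least 1.5-fold higher numbered 4 of 62 with no filter. There was 1 with a pseudocount of 32, the 75th and 95th percentile filters, the mean of probe sets and several symbols allowed. There was also 1 among core members only and 1 without the 3 dim genes. None was 2-fold higher among core members only. RPLP2 turned to -0.084 without a cross-match suffix and -0.14 with several symbols allowed. Of 335 values of 24 named genes 323 moved by less than the probe set spread and 12 by more, these 2 of RPLP2 included. Among the other 10, RPS15 turned to 0.12 with the mean of probe sets and 0.64 without a cross-match suffix, where RPL37A was at -0.66, and RPL36A turned to -0.59 with several symbols allowed. The cause of these shifts was not tested. No paired analysis was possible because each group has 1 array.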
